A study of Homo sapiens with 2 samples.

Results

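The genes described here are 32 components of nucleolar ribosome biogenesis and RNA polymerase I together with 8 genes of the MYC network, measured in oral squamous cell carcinoma (OSCC) cells with forced expression of the long noncoding RNA DLEU1. The 40 members were chosen by symbol, as the genes on a fixed list whose name was given to at least 1 non-control probe of the array, and they made up 40 of the 43317 gene names and 60 of the 58201 probes measured. Ca9-22, an established OSCC cell line, was infected with a lentiviral vector carrying DLEU1 (DLEU1 vector) or with an empty lentiviral vector (control vector). Both cultures were then selected with 6 mg/ml of blasticidin for 2 weeks, so infection and selection were common to both groups. Total RNA (100 ng) of either culture was made into Cy3-labelled probe for 1 Agilent 1-colour array, so each group was 1 sample. With no replicate culture, no test, p-value or replicate SD could be given, and a single array per vector limits how precise any value is.

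Ribosome biogenesis begins in the nucleolus, where RNA polymerase I transcribes the precursor of most ribosomal RNA. Small nucleolar ribonucleoproteins then modify the precursor, box C/D particles by 2′-O-methylation and box H/ACA particles by pseudouridylation, and large assemblies fold and cleave it into the small and large subunits. MYC, a transcription factor that pairs with MAX on the E-box sequence CACGTG, is known to drive many of these genes, whereas MXD proteins, MXI1 and MNT pair with MAX in its place and repress. MXD1 is known to be induced when keratinocytes, the normal counterparts of OSCC cells, differentiate.

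The promoters of the members were read first, because the E-box is the letter sequence that MYC and its antagonists share. RefSeq promoters of the GRCh38.p14 build, each 250 bases before to 50 bases after the start of a transcript, were found for 33 of the 40 members. The motif CACGTG, which reads the same on both strands, was present in at least 1 promoter of 15 of those 33 members (45.5%), as against 2396 of 27305 genes with a promoter (8.77%) and 1312 of 10799 genes that were also detected on both arrays (12.1%). Each window below runs from 90 bases before to 30 bases after the start, in lower case with CACGTG in capitals. LYAR, UTP20 and RRP9 are shown as the members with the motif whose difference was lowest, DDX21, FBL, GNL3, WDR43 and NOP10 for different steps of the pathway, and MXD1 as the member with the highest difference, which holds no CACGTG in this window. All promoters of the genome held the motif in this 120-base window in 3.82% of cases.
LYAR, chr4:4289992-4290111, minus strand: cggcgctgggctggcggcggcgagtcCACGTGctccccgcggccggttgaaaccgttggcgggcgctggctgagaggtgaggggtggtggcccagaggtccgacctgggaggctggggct
UTP20, chr12:101280015-101280134, plus strand: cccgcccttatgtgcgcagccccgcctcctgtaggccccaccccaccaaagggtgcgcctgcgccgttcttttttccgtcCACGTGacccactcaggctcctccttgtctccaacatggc
RRP9, chr3:51941875-51941994, minus strand: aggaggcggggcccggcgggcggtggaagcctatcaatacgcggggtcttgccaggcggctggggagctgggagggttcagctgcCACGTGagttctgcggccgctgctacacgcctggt
DDX21, chr10:68956557-68956676, plus strand: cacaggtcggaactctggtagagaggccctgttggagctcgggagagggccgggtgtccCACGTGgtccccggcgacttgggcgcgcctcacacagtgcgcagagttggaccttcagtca
FBL, chr19:39846350-39846469, minus strand: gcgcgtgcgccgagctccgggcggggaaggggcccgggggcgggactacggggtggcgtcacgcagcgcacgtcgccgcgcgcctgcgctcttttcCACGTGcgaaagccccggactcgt
GNL3, chr3:52685942-52686061, plus strand: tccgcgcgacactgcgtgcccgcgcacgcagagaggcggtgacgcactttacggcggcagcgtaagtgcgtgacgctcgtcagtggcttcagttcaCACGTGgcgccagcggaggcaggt
WDR43, chr2:28894577-28894696, plus strand: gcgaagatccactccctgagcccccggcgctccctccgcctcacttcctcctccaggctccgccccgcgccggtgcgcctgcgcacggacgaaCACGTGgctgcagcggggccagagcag
NOP10, chr15:34343107-34343226, minus strand: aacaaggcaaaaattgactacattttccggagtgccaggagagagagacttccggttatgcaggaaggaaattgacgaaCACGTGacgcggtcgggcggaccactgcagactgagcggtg
MXD1, chr2:69915019-69915138, plus strand: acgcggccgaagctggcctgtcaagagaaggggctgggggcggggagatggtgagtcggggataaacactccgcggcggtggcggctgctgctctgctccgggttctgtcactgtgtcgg
A match is only a description of these letters. Counting the first base of the transcript as 1 and the base before it as -1, the motif began at 4 in WDR43, at 7 in both FBL and GNL3, at -5 in RRP9, at -10 in UTP20, at -11 and again at -170 in NOP10, at -31 in DDX21 and at -64 in LYAR. In members whose windows are not shown in letters, it began at 14 in PES1, at 28 in MYBBP1A, at 29 in BYSL, at 32 in GAR1 and at 36 in NOP2. The PES1 site lay within the span that the windows cover. In MNT and MXD4 the motif lay farther upstream, at -193 and -238. The motif was found in 13 of the 26 nucleolar and RNA polymerase I members with a promoter, which included 4 of 4 small subunit genes, 2 of 5 large subunit genes and 4 of 6 genes of other nucleolar proteins, but 0 of 5 RNA polymerase I genes. It was found in 2 of 7 MYC network members.

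Levels are given as log2 of the processed signal relative to the 75th percentile of the array, and differences on that scale are those of the DLEU1 vector cells minus the control vector cells. Detection required that the scanner software placed a majority of a probe's spots well above background, and a gene was read from its brightest probe detected on both arrays. The SD of the difference was 0.08 between spots of one probe and 0.47 between probes of one gene, and neither holds the variation between cultures. The level of DLEU1 itself was higher in the DLEU1 vector cells by its brightest probe, which read 3.17 in the control vector cells and 5.91 in the DLEU1 vector cells, a difference of 2.74. Its other detected probes differed by 0.85 and 0.54. All 8 of 8 squamous epithelial markers were detected on both arrays. At least 2-fold higher in the DLEU1 vector cells were 6 of them, where 9.18% of all genes were, and EPCAM was lower (-0.78). The summed level of the 8 markers was 502 times the 75th percentile signal in the control vector cells and 1761 times in the DLEU1 vector cells. Of the fibroblast markers, 2 of 6 were detected on both arrays, with summed levels of 1.55 and 22.4. COL1A1 carried that difference (0.47 and 4.47), since PDGFRB was lower (-3.51 and -3.84), LUM was detected on the DLEU1 vector array alone, and COL1A2, COL3A1 and DCN were detected on neither array. Of the endothelial markers, 2 of 4 were detected on both arrays, with summed levels of 0.46 and 2.76. VWF carried that difference (-2.33 and 1.37), since CDH5 was lower (-2.14 and -2.73) and PECAM1 and KDR were detected on neither. Leukocyte markers had summed levels of 1.49 and 1.20, with 4 of 5 detected on both arrays and CD3E on neither. The part of these markers in the results on the members was not tested. A damaged strip on the DLEU1 vector array held many dim spots. It was marked by 286 spots, of which 243 lay in rows 61 to 110 and columns 31 to 44. These spots contained none of the probes from which member genes were read, but did contain the probe of the squamous marker CDH1.

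Each of the 40 members was detected on both arrays, by 56 of the 60 probes. The median difference of the members was -0.95, a 1.93-fold lower level in the DLEU1 vector cells, where the median of the 20246 genes detected on both arrays was -0.07. Of the members, 35 were lower and 5 were higher, as against 54.2% of all genes lower. At least 2-fold lower were 20 of 40 members (50%), where 9.78% of all genes were, and at least 2-fold higher were 2 members, where 9.18% of all genes were. At a 1.5-fold threshold 29 members were lower, as against 22% of all genes, and 4 were higher, as against 18.4%. At a 3-fold threshold 7 members were lower, as against 3.31% of all genes, and 2 were higher, as against 3.82%. Scaling to spike-in controls changed the 2-fold shares of members and of all genes together, to 31 members (77.5%) and 23.9% of all genes lower, with 4.60% of all genes higher. A signal-dependent spike-in correction gave 30 members (75%) and 25.5% of all genes lower, with 4.21% higher, and loess gave 12 members (30%) and 8.16% of all genes lower. Because both arrays received the same amount of total RNA, levels are relative to that RNA, and fewer cells of a type cannot be told apart from less RNA per cell.

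**Figure D1:**
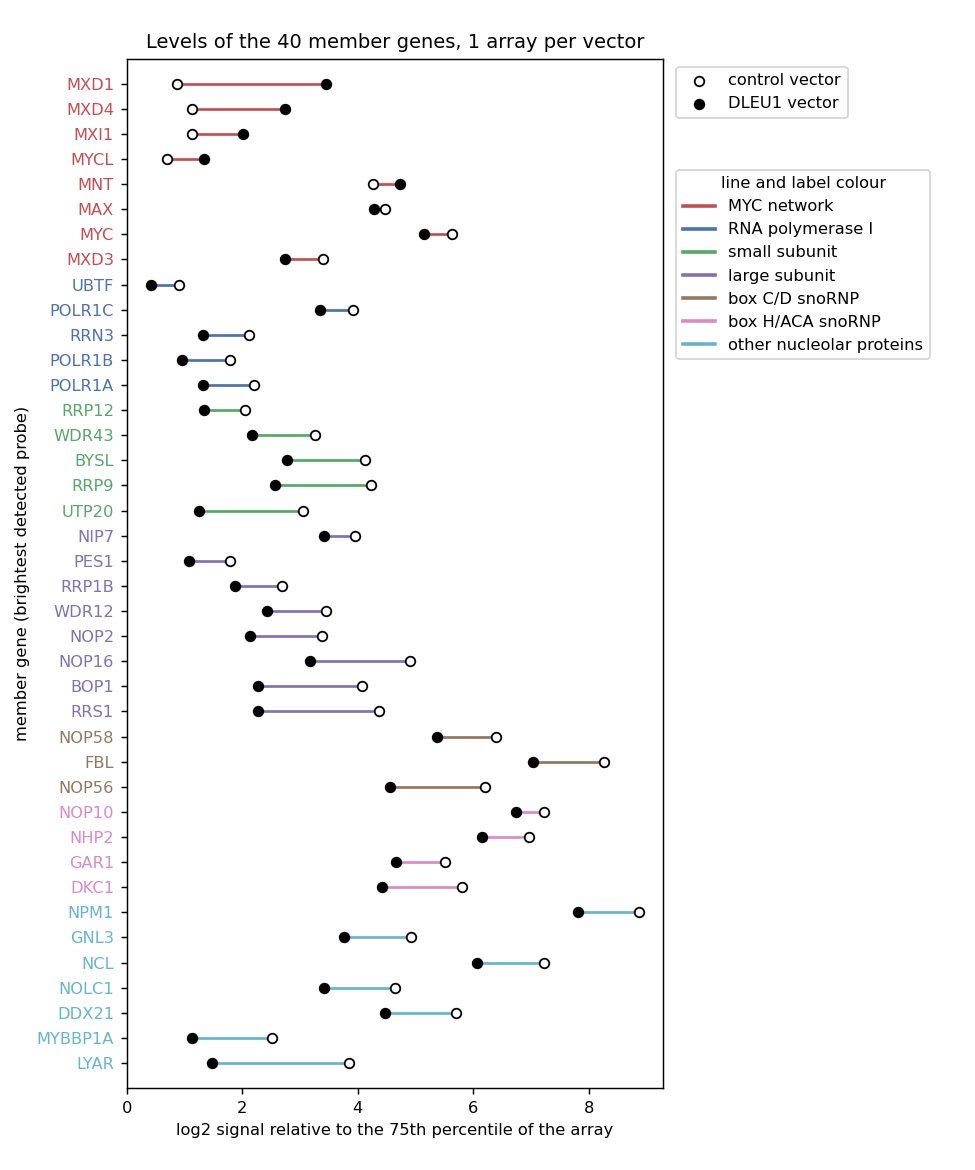
Level of each of the 40 members in control vector (open points) and DLEU1 vector cells (filled points), as log2 of the signal relative to the 75th percentile of the array, grouped by role. Each pair of points is 1 gene and there are no error bars because each group had 1 array. The 32 nucleolar and RNA polymerase I genes were each lower on the DLEU1 vector array, and MXD1 and MXD4 were each at least 2-fold higher. Levels of different genes come from different probes and are not comparable.

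The nucleolar and RNA polymerase I members lay on the same side without exception, since 32 of 32 were lower in the DLEU1 vector cells. Their differences ran from -2.38 in LYAR to -0.48 in UBTF, with a median of -1.13, which is 2.18-fold. The size of each was larger than the 0.47 spread between probes of a gene, although UBTF and NOP10 exceeded it by little. Of their probes detected on both arrays, 39 of 40 were below 0. The exception was a dim second probe of RRP12, which read -2.64 in the control vector cells and -1.92 in the DLEU1 vector cells. Within these 32 genes the split by role was uneven. At least 2-fold lower were 7 of 7 other nucleolar proteins and 3 of 3 box C/D proteins, where 9.78% of all genes were. The count was 0 of 5 for RNA polymerase I genes, which with 5 genes is near that share. Some genes lay close to the threshold, with NPM1 at -1.04, NOP58 at -1.03 and POLR1A at -0.89. The split by role also depended on the scaling. With either spike-in correction 4 of 5 RNA polymerase I genes (POLR1A, POLR1B, POLR1C and RRN3) were at least 2-fold lower, and with loess 3 of 7 other nucleolar proteins and 1 of 3 box C/D proteins were.

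RNA polymerase I and its initiation factors were lower by less than 2-fold, with a median difference of -0.78 over 5 genes. That median ranged from -1.29 to -0.67 over the alternatives, and was past 2-fold under both spike-in corrections (-1.24 and -1.29). POLR1A, the largest subunit of the enzyme, read 2.21 in the control vector cells and 1.32 in the DLEU1 vector cells, a difference of -0.89. POLR1B, the other catalytic subunit, read 1.79 and 0.96, a difference of -0.83. A second POLR1B probe, which lay in the damaged strip, was detected on the control vector array alone and for that reason was not used. RRN3, the factor that makes the polymerase competent to initiate, read 2.11 and 1.33, and its 3 probes differed by -0.78, -0.77 and -0.63. POLR1C, a subunit common to RNA polymerases I and III, read 3.91 and 3.34, and its 3 probes spread from -1.02 to -0.19. UBTF, the upstream binding factor that holds ribosomal DNA open, had the smallest difference of the group at -0.48, from 0.90 to 0.42. The direction was thus common to all 5 genes, while the size differed little from the spread between probes for POLR1C and UBTF.

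The box C/D core proteins were all at least 2-fold lower. FBL, or fibrillarin, the methyltransferase of the particle, read 8.27 in the control vector cells and 7.04 in the DLEU1 vector cells, a difference of -1.23. Its probe lies at chr19:40325133-40325192 (hg19, minus strand). NOP56, which bridges fibrillarin and the guide RNA, read 6.21 and 4.55, a difference of -1.66, and its second probe differed by -1.32. Its partner NOP58 read 6.40 and 5.37, a difference of -1.03. The box H/ACA proteins were lower by a median of -0.83, or between -1.29 and -0.57 over the alternatives, with 1 of 4 past 2-fold and 3 of 4 with either spike-in correction. That gene was DKC1, or dyskerin, the pseudouridine synthase, which read 5.81 and 4.43, a difference of -1.38. The remaining core proteins of the particle, which is also part of telomerase, differed less. GAR1 read 5.50 and 4.66 (-0.84), NHP2 read 6.97 and 6.15 (-0.81), and NOP10 read 7.23 and 6.74 (-0.50).

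Genes for assembly of the small subunit were lower by a median of -1.35, and 4 of 5 were at least 2-fold lower. UTP20, a large scaffold of the small subunit processome, read 3.05 in the control vector cells and 1.25 in the DLEU1 vector cells, a difference of -1.80. RRP9, a protein of the U3 small nucleolar ribonucleoprotein, read 4.23 and 2.56, a difference of -1.67. BYSL, or bystin, which acts on the late precursor of the small subunit, read 4.12 and 2.77, a difference of -1.35. These genes and WDR43, a processome protein that read 3.26 and 2.16 (-1.09), each carried the E-box in the promoter. RRP12, which serves in export of the precursor particles, read 2.04 and 1.34 (-0.70) and was the gene of the group whose probes differed in sign.

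For the large subunit, 5 of 8 genes were at least 2-fold lower, where 9.78% of all genes were, and the median difference was -1.14. The count was 8 of 8 with spike-in scaling, where 23.9% of all genes were. It was 7 of 8 with the signal-dependent spike-in correction (25.5% of all genes) and 4 of 8 with loess (8.16%). RRS1, needed to place the 5S particle into the precursor, read 4.37 in the control vector cells and 2.28 in the DLEU1 vector cells, a difference of -2.09, or 4.25-fold. BOP1, PES1 and WDR12 form the PeBoW complex, and their differences were -1.81 (4.08 and 2.27), -0.71 (1.78 and 1.07) and -1.02 (3.45 and 2.43). These values were spread over more than 1 unit of log2 difference. Each came from 1 probe, and the SD between probes of one gene was 0.47, so a difference between the genes was not tested. NOP16, a nucleolar assembly protein, read 4.90 and 3.17, a difference of -1.73. NOP2, which methylates the large ribosomal RNA, read 3.39 and 2.13, a difference of -1.26. RRP1B, a nucleolar protein of the same pathway, and NIP7, which acts in precursor processing, were lower by less than 2-fold, at -0.80 (2.68 and 1.88) and -0.54 (3.95 and 3.41).

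The other nucleolar proteins were lower by a median of -1.24, and 7 of 7 were past 2-fold. LYAR, a nucleolar zinc finger protein, read 3.86 in the control vector cells and 1.48 in the DLEU1 vector cells, a difference of -2.38 or 5.20-fold, and 1.20% of all genes had a lower difference. It was the lowest of the 40 members, and its promoter carried the E-box shown above in letters. NPM1, or nucleophosmin, the abundant chaperone of the granular part of the nucleolus, was lower by each of 3 probes. Its brightest probe, at chr5:170837789-170837848 (hg19, plus strand), read 8.86 and 7.82 (-1.04), and the others read 7.10 and 5.75 (-1.35), and 6.02 and 4.53 (-1.48). Cross-hybridisation of these probes with copies of NPM1 elsewhere in the genome was not examined. NCL, or nucleolin, read 7.23 and 6.07, a difference of -1.16, by a probe at chr2:232319721-232319780 (hg19, minus strand). NOLC1, a chaperone of small nucleolar ribonucleoproteins, read 4.65 and 3.41 (-1.24), and DDX21, an RNA helicase, read 5.71 and 4.47 (-1.24). MYBBP1A, a nucleolar protein known to bind MYB, read 2.52 and 1.13 (-1.39), and GNL3, or nucleostemin, a GTPase of proliferating cells, read 4.91 and 3.75 (-1.16).

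**Figure D2:**
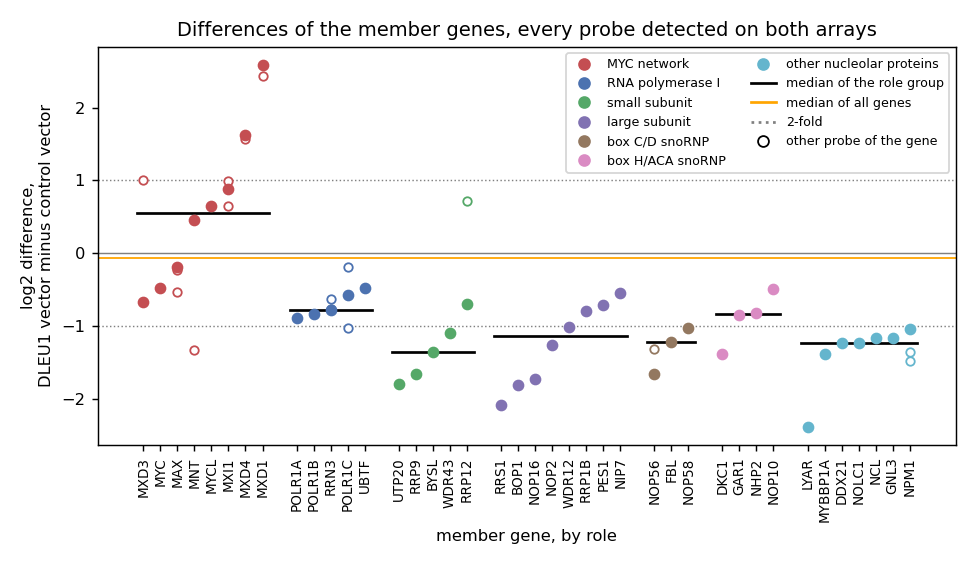
Log2 difference, DLEU1 vector minus control vector, of each member, grouped by role, with the gene's other detected probes as smaller points and lines at 2-fold. The other nucleolar and box C/D proteins all lay beyond 2-fold lower, the RNA polymerase I genes lay between -0.89 and -0.48, and the MYC network spread from -0.66 to 2.59.

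The MYC network did not share this pattern. Of its 8 genes 3 were lower and 5 were higher, with a median of 0.55 that ranged from 0.09 to 0.70 over the alternatives, and 0 were at least 2-fold lower, as against 1 (MXD3) with either spike-in correction. MYC itself read 5.63 in the control vector cells and 5.15 in the DLEU1 vector cells, a difference of -0.48 or 1.39-fold. Its probe had 10 spots per array, of which 7 were outliers on neither array. A lower difference was found for 26.8% of all genes. MAX, the common partner, read 4.47 and 4.29, a difference of -0.19 that changed sign to 0.02 with quantile and 0.04 with loess normalization. MYCL, a paralogue of MYC, read 0.69 and 1.33, a difference of 0.64.

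Among the antagonists, MXD1 read 0.87 in the control vector cells and 3.45 in the DLEU1 vector cells, a difference of 2.59 or 6.00-fold. Its probe lies at chr2:70169884-70169943 (hg19, plus strand), and a second MXD1 probe read -1.15 and 1.28, a difference of 2.43. MXD1 was higher than 99.0% of all genes in this difference. MXD4 read 1.12 and 2.74 by a probe at chr4:2251280-2251339 (hg19, minus strand), a difference of 1.62 or 3.07-fold, and its second probe differed by 1.57. MXI1 read 1.13 and 2.01, and its 3 probes differed by 0.88, 0.99 and 0.64. The antagonists did not all lie on that side. MXD3, which is known to be expressed in proliferating cells, read 3.40 and 2.74 (-0.66) by its brighter probe and -3.68 and -2.68 (1.0) by a dim one, and the mean of its probes was 0.17. MNT read 4.27 and 4.72 (0.46) by its brighter probe and -0.23 and -1.57 (-1.33) by the other, so that the mean of its probes was -0.44. The probes of MXD3 and of MNT thus gave no single direction.

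The further genes of each pathway, which were listed by function but with earlier results of these data known, gave the surroundings of the members. Of 46 further genes of the small subunit with a probe, 45 were lower, where 54.2% of all genes were. At least 2-fold lower were 23 (50%), where 9.78% of all genes were, and the median was -1.0. The lowest were KRR1 (1.03 and -0.62, a difference of -1.65) and DHX37 (3.42 and 1.84, a difference of -1.58), both of the processome, and the highest were TBL3 (0.01) and RIOK2 (-0.03). Of 46 further genes of the large subunit, 45 were lower and 24 (52.2%) passed 2-fold, the median being -1.03. MRTO4 (-1.79) and PAK1IP1 (-1.68), both assembly factors, were the lowest, and GLTSCR2 (0.33) and DDX51 (-0.32) the highest. The further RNA polymerase I genes were closer to 0, with a median of -0.39 over 12 genes, or between -0.88 and -0.26 over the alternatives. Of these 12 genes 11 were lower, where 54.2% of all genes were, and 3 (25%) were at least 2-fold lower, where 9.78% were. The differences were uneven, with quartiles of -0.94 and -0.07. The list joined subunits of the enzyme with other factors, so its median does not describe the enzyme alone. TAF1A, a subunit of the selectivity factor SL1, was the lowest (2.25 and 0.19, a difference of -2.06), followed by CD3EAP (-1.36), whereas PTRF (-0.02) and BAZ2A (0.03) were the highest.

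Genes of the cytosolic ribosomal proteins, which are the end products that the nucleolus assembles, differed less than the assembly factors. Of 75 genes, 74 were lower, where 54.2% of all genes were. Their median difference was -0.37, or between -0.83 and -0.09 over the alternatives. At least 2-fold lower was 1 gene (1.33%), where 9.78% of all genes were. That gene was RPL27A, read by a dim probe (-1.35 and -3.55, a difference of -2.20). RPL10A (-0.07) and RPS24 (0.01) were the highest. The difference between these genes and the nucleolar members was not tested.

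MYC target genes that act outside the nucleolus were all on the low side, with 19 of 19 detected genes lower, where 54.2% of all genes were. Past 2-fold were 12 (63.2%), where 9.78% of all genes were, and the median difference was -1.18. ODC1, the first enzyme of polyamine synthesis, read 6.04 and 3.24, a difference of -2.81, and SRM, the spermidine synthase of the same pathway, read 4.07 and 1.90, a difference of -2.17. PTMA (-0.58) and TFRC, the transferrin receptor (-0.36), differed least. The further MYC network genes had a median of -0.13, or between -0.65 and -0.02 over the alternatives, with 5 of 7 lower, as against 54.2% of all genes, and 0 past 2-fold in either direction. They ran from MLX (-0.75) and MYCBP (-0.71) to MLXIP (0.32) and MLXIPL (0.50), and MYCN was detected on neither array.

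**Figure D3:**
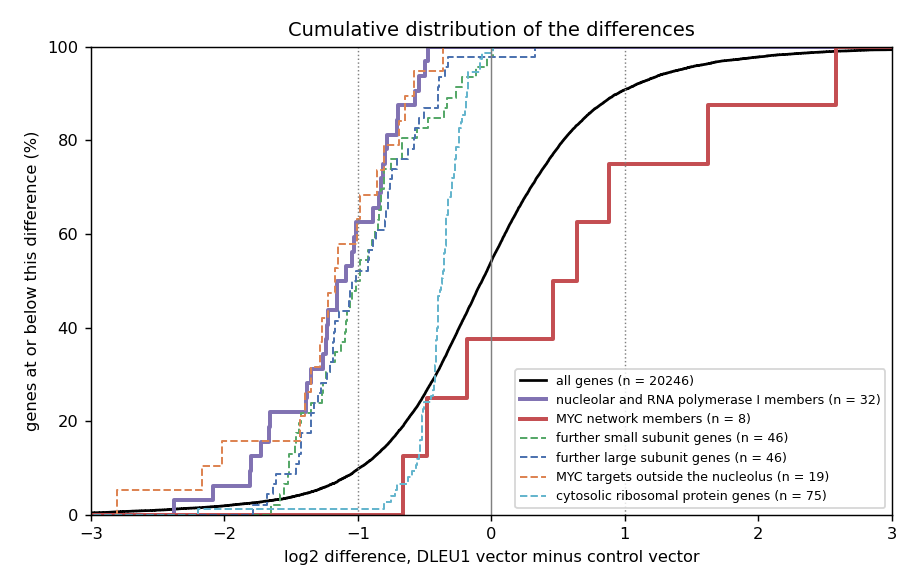
Cumulative share of genes, in percent, against the log2 difference, DLEU1 vector minus control vector, for the members, the further lists and all 20246 genes detected on both arrays. The nucleolar members and the further small and large subunit genes lay left of all genes, and the ribosomal protein genes lay between, with medians of -1.13, -1.0, -1.03 and -0.37 as against -0.07.

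The E-box was read against these differences. It was present in 10 of the 16 members with a promoter that were at least 2-fold lower (62.5%) and in 5 of the other 17 (29.4%). The other 17 included 7 MYC network genes, of which 2 held it, and 5 RNA polymerase I genes, of which 0 did. Among the rest of the 17, NOP10, PES1 and GAR1 held it and NHP2 and NIP7 did not. The sets thus differed in role as well as in the size of the difference. Of the further lists, 15 of 40 small subunit genes (37.5%), 13 of 41 large subunit genes (31.7%) and 10 of 17 MYC targets outside the nucleolus (58.8%) with a promoter held it, whereas 4 of 62 ribosomal protein genes (6.45%) did. These shares were not tested. No CACGTG was found in the promoters of the remaining members at least 2-fold lower, which were DKC1, NCL, NOP16, NOP56, NPM1 and WDR12. NOP10 (-0.50), PES1 (-0.71) and GAR1 (-0.84) held the motif and were less than 2-fold lower, and MNT (0.46) and MXD4 (1.62) held it and were higher by their brightest probes.

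The scaling of the arrays set the size of these differences but seldom their direction. Relative to all genes, the members' median minus that of all genes was -0.88 with the 75th percentile and between -0.99 and -0.78 over the alternatives. The nucleolar and RNA polymerase I members were each lower in all 13 alternatives, except RRP12 when its probes were averaged (0.01). The 12 genes BOP1, BYSL, DKC1, LYAR, MYBBP1A, NOLC1, NOP16, NOP2, NOP56, RRP9, RRS1 and UTP20 were at least 2-fold lower in each alternative. The share of all genes that were so in each alternative was not computed. In single alternatives it lay between 6.98% and 25.5%. MXD1 ranged from 2.09 to 2.70 and MXD4 from 1.11 to 1.73, while MYC ranged from -0.94 to -0.23.

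**Figure D4:**
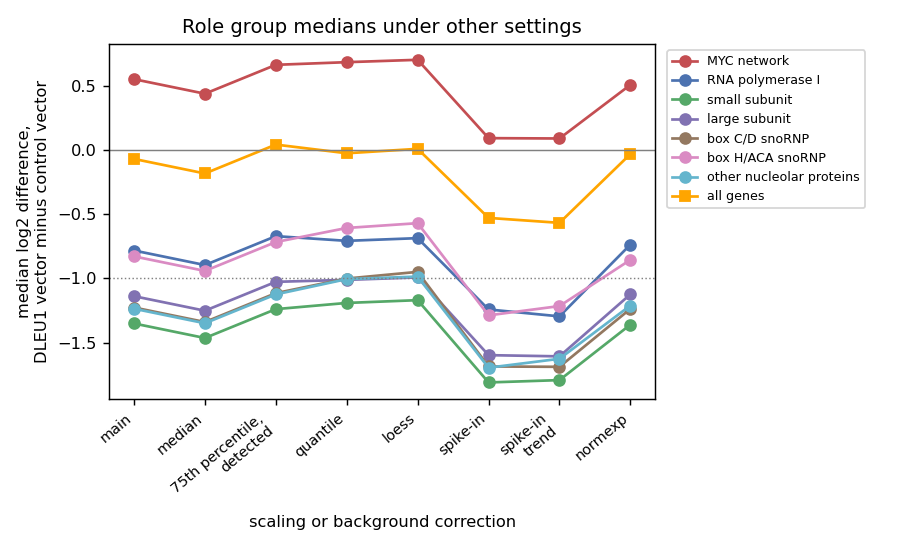
Median log2 difference, DLEU1 vector minus control vector, of each role group and of all genes under the main setting and 7 other scalings or background corrections. Spike-in scaling took the median of all genes to -0.53 and loess took it to 0.0083. The small subunit genes lay lowest under each setting plotted, between -1.81 and -1.17.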

How the data were processed

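Gene expression was measured on 2 Agilent 1-colour human arrays, 1 for Ca9-22 cells with the control vector and 1 for cells with the DLEU1 vector. The deposited values are intensity values: per the file headers, Agilent Feature Extraction 10.7.3.1 subtracted the background, removed spatial trends and gave dim spots a surrogate value, and probe positions are on hg19. The authors analysed the arrays in GeneSpring GX 13. The authors' series table held the same processed intensity, rounded, within 0.497%. Neither file was normalized between arrays.

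Of 62976 spots per array, control spots and outliers (84 and 103 spots) were left out, and no spot was saturated. Spots of a probe were averaged on the log2 scale, and the 75th percentile over non-control probes (7.92 and 7.88) was subtracted. A probe was detected where most of its spots were marked well above background, which held for 27731 probes for the control vector and 27969 for the DLEU1 vector. A gene was read from its brightest probe detected on both arrays. A difference was called at 2-fold. The damaged strip was defined as spots around which at least 25% of the lit spots in a square of 7 by 7 were at least 4-fold lower on the DLEU1 vector array. There 52.9% of lit spots were at least 2-fold lower, as against 12.9% elsewhere, a contrast that follows in part from the definition. Motifs were counted in the RefSeq promoters by script. The array steps were tested on simulated data, and the motif count was not.

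The members and all gene lists were chosen with earlier results of these data known. All 40 members were named, and of each further list the 2 lowest and 2 highest genes, except 1 gene that is not reported here. With 1 array per group, no model was fitted and no p-value was computed. Alternatives covered the scaling, background correction, filter, probe rule, damaged strip and fold threshold. Analyses used Python 3.11.15 with numpy 2.4.6, pandas 2.3.3, scipy 1.17.1, statsmodels 0.14.6 and matplotlib 3.10.9, and R 4.3.3 with limma 3.58.1.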

Additional observations from a re-analysis of the deposited data

How the results depend on the processing

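Leaving out a replicate was not possible with 1 array per group. No paired analysis was possible because each group had 1 array. The members' median difference, -0.95, moved to -1.06 when arrays were scaled to their median, -0.84 when the 75th percentile was taken over the detected probes, -0.81 under quantile and -0.77 under loess normalization, -1.41 under spike-in scaling and -1.37 under a spike-in trend. These scalings moved the median of all genes by -0.11, 0.11, 0.04, 0.08, -0.46 and -0.50. At least 2-fold lower were 20 members, 12 with loess, 31 with spike-in scaling, 29 at a 1.5-fold and 7 at a 3-fold threshold. At least 2-fold higher were 2 members, 4 at a 1.5-fold and 2 at a 3-fold threshold. With loess 8.16% of all genes were at least 2-fold lower, and with spike-in scaling 23.9%. No median or count of members changed direction. Of 520 values of single members over 13 alternatives, 281 moved by less than the spread between spots and 239 by more, and 5 changed sign, in MAX, MXD3, MNT and RRP12. Where values moved, the cause was not tested. The spread between cultures is unknown. For MXD3, MNT and RRP12 the probes in disagreement were dim or of different brightness, and 3 of the 60 member probes were detected on neither array.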

Other observations

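Further RNA processing machineries were listed after the data were seen, so their values are descriptions. They are given under the main setting, where 54.2% of all genes were lower and 9.78% were at least 2-fold lower. Of 9 genes of RNase P and RNase MRP, the latter a nucleolar ribonuclease that cuts the ribosomal RNA precursor, 8 were lower in the DLEU1 vector cells and 4 were past 2-fold, and the median difference was -0.72. POP1 (-1.63) and POP7 (-1.27) were the lowest and RPP25 (0.17) and RPP38 (-0.53) the highest. The RNA exosome, which trims ribosomal RNA precursors from the 3′ end, had 13 of 13 detected genes lower and 6 past 2-fold, and the median was -0.92. EXOSC8 (-1.82) and EXOSC9 (-1.74) were the lowest, EXOSC7 (-0.10) and EXOSC2 (-0.06) were the highest, and DIS3 was detected on the DLEU1 vector array alone. The EXOSC2 probe was the brightest of the exosome list (9.23 in the control vector and 9.17 in the DLEU1 vector cells). Whether it reads EXOSC2 alone was not examined. RNA polymerase III, which makes transfer RNA and 5S ribosomal RNA, had 18 of 21 genes lower and 4 past 2-fold, and the median was -0.55. POLR3K (-1.93) and GTF3A (-1.52), the factor for the 5S genes, were the lowest. POLR3GL (0.37) and MAF1, a repressor of the polymerase (0.44), were the highest.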
